A study of Mus musculus with 12 samples.

Results

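The genes described here are 31 cell cycle and DNA replication genes, chosen by symbol from the 16670 genes of the deposited table. All 31 were listed. By role they fall into 10 replication genes, 3 regulators of the step from G1 into S phase, and 18 mitotic genes. The study measured RNA in inguinal white adipose tissue of female C57BL/6 mice, parted into a stromal vascular fraction (the pelleted cells, which hold progenitors, vessel cells and immune cells) and a floating mature adipocyte fraction. The 4 groups, each of 3 libraries, were the stromal vascular fraction of Kdm5c+/- mice, the stromal vascular fraction of Kdm5c+/+ mice, the mature adipocytes of Kdm5c+/- mice and the mature adipocytes of Kdm5c+/+ mice. Kdm5c encodes an X-linked demethylase of histone H3 lysine 4. Each library came from the pooled fat of 2 mice, and no age or treatment is given in the labels.

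Before a cell copies its DNA, the origin recognition complex and Cdc6 load the Mcm2 to Mcm7 ring onto DNA, and this ring later unwinds the double helix. Cyclin E with its kinase, and the E2F factors that drive S-phase genes, start the copying, for which Pcna clamps the polymerases to DNA and ribonucleotide reductase and thymidylate synthase supply nucleotides. Mitotic genes such as cyclin B, Cdk1, Aurora kinases and kinesins are made later, in G2 and M phase, many of them under Foxm1. Mature adipocytes are taken to have left the cycle, while progenitors, endothelial cells and immune cells of fat can divide. Several replication genes also have duties in DNA repair, so their RNA may be a less strict mark of division than that of Mki67 or Top2a.

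In the promoters of these genes, replication genes and mitotic genes are known to carry different elements, and both kinds could be looked up in the RefSeq promoter windows (GRCm38.p6, from 250 bases before to 50 bases after the start). At least 1 window was found for 25 of the 31 genes (9 replication genes, 14 mitotic genes and 2 G1/S regulators), and genes are counted here by whether any window of theirs holds a match. Windows were searched on both strands for an E2F-like element (TTTGGCG or TTTCCCG), a CHR element (TTTGAA or TTCGAA, the second being the same on both strands) and the CCAAT box (CCAAT). The E2F-like element was found for 5 of 9 replication genes and 2 of 14 mitotic genes, against 9.14% of the genes tested between fractions that have a window. The CHR element was found for 2 of 9 replication genes and 11 of 14 mitotic genes, against 16.4% of those genes. The CCAAT box was found for 7 of 9 replication genes and 12 of 14 mitotic genes, against 42.3%. None of the 3 was found for either G1/S regulator that has a window. The windows of E2f1, Cdc6 and Mcm7 lie wholly inside these genes as annotated in GENCODE M21. For these genes the bases before the outermost annotated start were therefore not searched. The E2F-like matches of Cdc6 and Mcm7 are among the 5 of the replication genes. A match describes letters in a window and shows no bound factor. Below are 2 replication windows and 3 mitotic windows, picked after the matches were seen because they hold several matches each. They are read 5′ to 3′ on the gene's strand, which is the minus strand for all of them, with every match in capitals. Mcm6 lies at chr1:128359656-128359955, Mcm3 at chr1:20820263-20820562, Cdk1 at chr10:69352863-69353162, Top2a at chr11:99024140-99024439 and Mki67 at chr7:135716330-135716629.
Mcm6: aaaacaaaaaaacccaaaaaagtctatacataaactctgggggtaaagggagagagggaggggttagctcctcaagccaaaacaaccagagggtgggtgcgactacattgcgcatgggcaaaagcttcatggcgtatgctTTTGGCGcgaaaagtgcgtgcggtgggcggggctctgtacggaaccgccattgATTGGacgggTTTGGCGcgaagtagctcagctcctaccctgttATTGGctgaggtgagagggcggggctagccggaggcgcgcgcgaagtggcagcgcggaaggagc
Mcm3: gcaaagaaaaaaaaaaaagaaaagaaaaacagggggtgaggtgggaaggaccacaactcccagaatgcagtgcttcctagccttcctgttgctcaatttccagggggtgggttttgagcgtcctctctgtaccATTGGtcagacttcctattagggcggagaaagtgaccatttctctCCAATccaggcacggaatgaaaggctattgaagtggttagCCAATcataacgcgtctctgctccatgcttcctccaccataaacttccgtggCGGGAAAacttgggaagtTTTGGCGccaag
Cdk1: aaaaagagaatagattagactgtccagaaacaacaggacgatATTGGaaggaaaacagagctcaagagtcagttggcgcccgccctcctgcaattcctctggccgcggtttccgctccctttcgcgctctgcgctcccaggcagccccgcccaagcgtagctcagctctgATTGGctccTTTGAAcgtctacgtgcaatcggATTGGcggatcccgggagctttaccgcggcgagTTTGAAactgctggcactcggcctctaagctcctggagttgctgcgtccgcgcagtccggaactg
Top2a: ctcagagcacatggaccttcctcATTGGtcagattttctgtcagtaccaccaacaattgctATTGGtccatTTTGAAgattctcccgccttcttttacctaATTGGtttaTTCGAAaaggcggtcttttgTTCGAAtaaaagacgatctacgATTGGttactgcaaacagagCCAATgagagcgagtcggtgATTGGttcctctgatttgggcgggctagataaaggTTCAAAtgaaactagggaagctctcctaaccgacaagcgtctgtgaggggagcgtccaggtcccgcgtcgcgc
Mki67: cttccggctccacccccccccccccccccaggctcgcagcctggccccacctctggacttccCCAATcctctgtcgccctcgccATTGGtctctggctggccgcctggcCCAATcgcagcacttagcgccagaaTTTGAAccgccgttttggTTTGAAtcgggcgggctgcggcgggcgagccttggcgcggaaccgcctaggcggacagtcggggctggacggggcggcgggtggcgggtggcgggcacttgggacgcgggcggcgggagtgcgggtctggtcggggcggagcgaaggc
The capitals in Mcm6 and Mcm3 mark 2 E2F-like elements each, beside CCAAT boxes, and no CHR element. Those in Cdk1, Top2a and Mki67 mark 2, 4 and 2 CHR elements, beside CCAAT boxes, and no E2F-like element.

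Depth, recovered as whole reads from the CPM values (read counts scaled to 1000000 per library), was 21836878 to 29434125 reads per library, so that 3 reads, taken as the floor, were worth 0.102 to 0.137 CPM. Such limits cover counting error only. The 5 adipocyte markers summed to 834 ± 460 CPM in the stromal vascular fraction and 26348 ± 5072 CPM in mature adipocytes (SD, n = 6 each), and the 32 markers of stromal vascular cell types had a median level in mature adipocytes of 1.74% of that in the stromal vascular fraction. Kdm5c itself did not mark the genotype: in the stromal vascular fraction it averaged 186 ± 9.89 CPM in libraries labelled Kdm5c+/- and 185 ± 4.09 CPM in libraries labelled Kdm5c+/+ (SD, n = 3 each, limma adjusted p = 0.978). In mature adipocytes it averaged 169 ± 18.4 CPM in libraries labelled Kdm5c+/- and 178 ± 2.99 CPM in libraries labelled Kdm5c+/+ (limma adjusted p = 0.717). The genotypes are therefore given as labels throughout. The labels do not say whether the exons deleted or altered are covered by this count.

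Between the fractions, all 10 replication genes and all 18 mitotic genes were higher in the stromal vascular fraction, although Cdc6, Tyms, Aurka and Nusap1 turned round after quantile normalization. None of the 3 G1/S regulators was called higher. The difference was tested with limma on log2(CPM + 1), with Benjamini-Hochberg adjustment over 14193 genes and a threshold of 0.05. Of the 31 genes, 28 rose in the stromal vascular fraction and 1, Ccne1, fell. Over all genes tested the same call was made upward for 59.1% and downward for 28.7%, so the upward share of the cell cycle genes stands against a high background. The median log2 difference of all genes was 0.45, and other scalings lowered it by 0.36 to 0.53. With edgeR on recovered reads, 27 of the 31 rose and 2 fell (Ccne1 and Ccne2), against 43.3% and 42.7% of all genes. In bulk RNA, fewer cells of a type and less RNA per cell cannot be told apart, nor can the dividing cells be assigned to a cell type. All stromal vascular libraries lay above all mature adipocyte libraries for 27 of the 31 genes, against 51.4% of all genes tested, and below them for 1, against 23.2%.

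**Figure D1:**
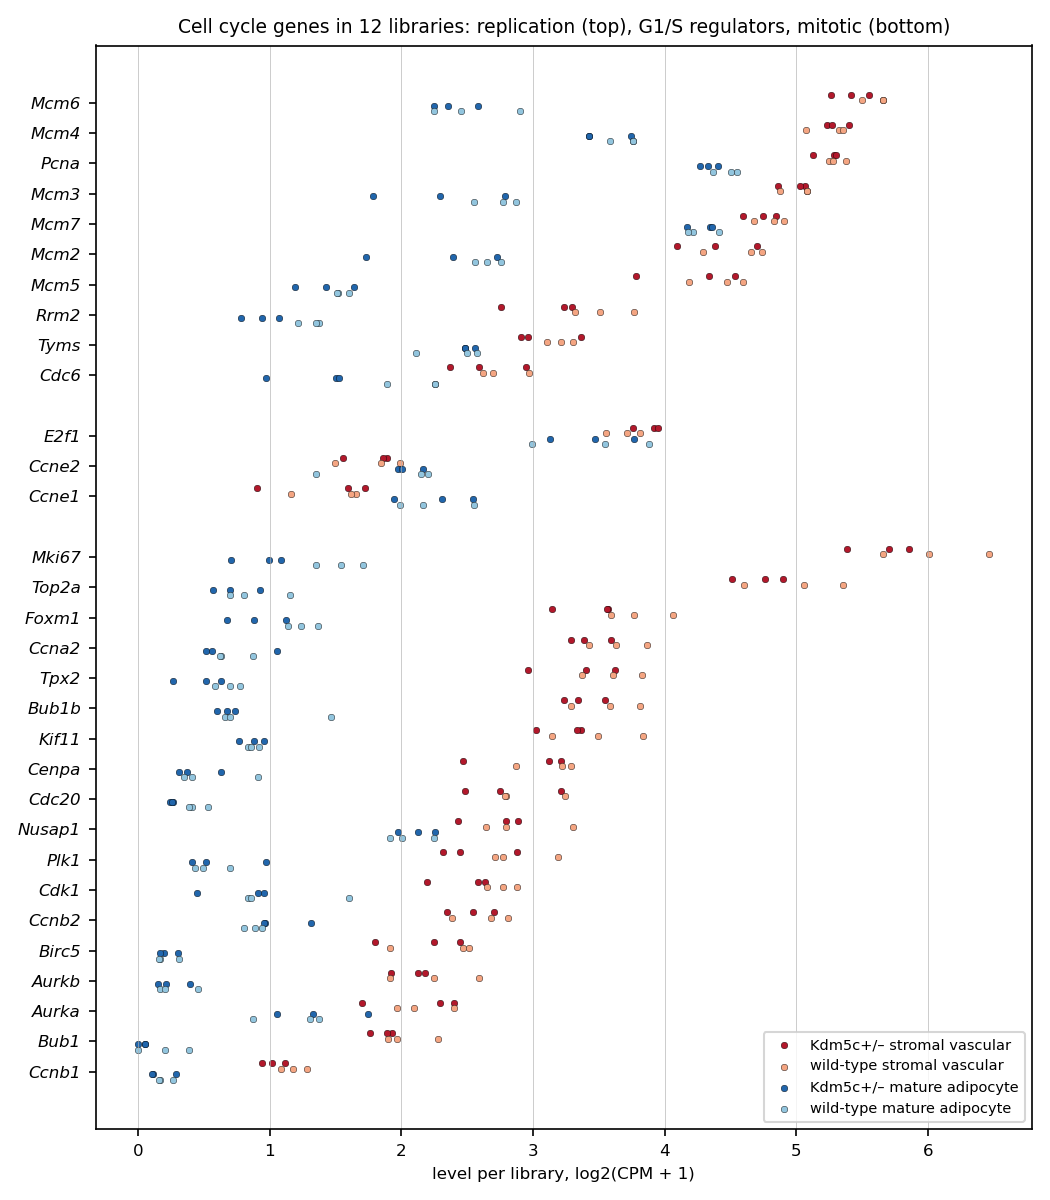
Level of each of the 31 genes in the 12 libraries, as log2(CPM + 1), with 1 point per library and 3 libraries per group. Stromal vascular points (red) lie to the right of mature adipocyte points (blue) for the replication and mitotic genes, Aurka overlapping, while the 3 G1/S regulators overlap or, for Ccne1, turn round.

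Among the replication genes, the Mcm ring subunits Mcm6, Mcm5 and Mcm3 had the largest log2(CPM + 1) differences between fractions and Mcm7 the smallest, while by edgeR, DESeq2 and the ratio of means Rrm2 stood above Mcm3. Mcm6, a ring subunit, lay at 37.4, 45.0 and 49.4 CPM (lowest, median, highest of 6) in the stromal vascular fraction, against 3.74, 4.29 and 6.46 CPM in mature adipocytes. The groups did not overlap, and the log2 difference was 3.04 ± 0.11 (SE, adjusted p = 1.21e-10). Mcm4, another subunit, lay at 32.7, 38.3 and 41.3 CPM, against 9.73, 11.7 and 12.6 CPM in mature adipocytes (log2 difference 1.66 ± 0.08, adjusted p = 1.3e-09). Mcm7 lay at 23.1, 26.7 and 29.0 CPM, against 17.0, 18.5 and 20.3 CPM in mature adipocytes. Its difference, 0.49 ± 0.07, was the smallest of the class (adjusted p = 4.23e-05), and the call was lost with edgeR on the recovered reads (0.03, adjusted p = 0.648), DESeq2 (0.11, adjusted p = 0.152), median-of-ratios scaling (0.11, adjusted p = 0.120) and quantile normalization (0.02, adjusted p = 0.783). Part of Mcm7 (12.6% of its exon bases) overlaps other genes, mostly on the opposite strand, and how strand was used in counting is not given in the sources used here.

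Pcna, the sliding clamp of DNA polymerases, had 34.0, 38.0 and 40.5 CPM in the stromal vascular fraction, against 18.3, 19.9 and 22.4 CPM in mature adipocytes. Its log2 difference of 0.86 ± 0.06 (adjusted p = 2.62e-08) left it, with Mcm7, as the most abundant of the class in mature adipocytes per length: 13.3 CPM per kilobase for Pcna and 6.23 for Mcm7. In the stromal vascular fraction Pcna was also highest, at 24.8 CPM per kilobase, with Mcm4 at 10.5 and Mcm6 at 10.3. Named pseudogenes exist for Pcna, Tyms, Ccnb1 and Ccnb2, with which their reads could be shared. The nucleotide suppliers differed in size: Rrm2, the small subunit of ribonucleotide reductase, had a log2 difference of 2.19 ± 0.12 (adjusted p = 3.83e-09), and Tyms, thymidylate synthase, 0.69 ± 0.11 (adjusted p = 6.66e-05). Cdc6, the loader of the ring, differed by 0.96 ± 0.14 (adjusted p = 3.58e-05). Across the class, mature adipocytes held from 9.38% (Mcm5) to 70.2% (Mcm7) of the stromal vascular level, with a median of 25.8%.

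The mitotic genes were closer to absent in mature adipocytes. Mki67, a coat protein of mitotic chromosomes used to count dividing cells, lay at 40.7, 53.9 and 87.4 CPM (lowest, median, highest) in the stromal vascular fraction, against 0.627, 1.33 and 2.27 CPM in mature adipocytes. Its log2 difference of 4.62 ± 0.14 was the largest of the 31 genes (adjusted p = 3.5e-11). Top2a, the topoisomerase that untangles sister chromatids, lay at 21.8, 27.4 and 39.9 CPM, against 0.480, 0.684 and 1.22 CPM in mature adipocytes (4.06 ± 0.14, adjusted p = 8.26e-11). Foxm1, the transcription factor of G2 and M genes, lay at 7.83, 11.0 and 15.7 CPM, against 0.600, 1.19 and 1.58 CPM in mature adipocytes (2.54 ± 0.12, adjusted p = 1.26e-09). None of these 3 overlapped between fractions.

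Ccna2, the cyclin of S and G2 phase, had 8.75, 10.4 and 13.6 CPM in the stromal vascular fraction, against 0.431, 0.542 and 1.08 CPM in mature adipocytes. Of its exon bases, 12.5% overlap Exosc9 on the opposite strand. Tpx2, which builds the spindle, had 6.78, 10.4 and 13.2 CPM, against 0.200, 0.523 and 0.713 CPM in mature adipocytes. Bub1b, a spindle checkpoint protein, had 8.43, 9.91 and 13.1 CPM, against 0.514, 0.609 and 1.77 CPM in mature adipocytes. All 3 rose in the stromal vascular fraction, with log2 differences of 2.82, 2.89 and 2.66. The mean in mature adipocytes was under 1 CPM for 14 of the 18 mitotic genes, and 9 of them were under 1 CPM in each of the 6 mature adipocyte libraries. For the checkpoint kinase Bub1 the mature adipocyte libraries held 1, 0 and 1 reads when labelled Kdm5c+/- and 0, 9 and 4 reads when labelled Kdm5c+/+, at or near the floor of 3 reads. On the log2(CPM + 1) scale the differences of such low genes are understated.

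A pair of mitotic genes kept a sizeable level in mature adipocytes. Nusap1, which bundles spindle microtubules, had 4.40, 5.95 and 8.89 CPM in the stromal vascular fraction and 2.77, 3.19 and 3.76 CPM in mature adipocytes, where it stood at 53.2% of the stromal vascular level. Aurka, the kinase of the spindle poles, stood at 42.3%, and its libraries overlapped between fractions. Both rose all the same, by 0.72 ± 0.13 (adjusted p = 0.000245) and 0.86 ± 0.17 (adjusted p = 0.000358). The other members, Ccnb1, Ccnb2, Cdk1, Birc5, Aurkb, Plk1, Cdc20, Kif11 and Cenpa, ranged from 4.27% (Cdc20) to 19.6% (Ccnb2).

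The G1/S regulators stood apart from both classes. Ccne1, cyclin E1, had 0.870, 2.04 and 2.30 CPM in the stromal vascular fraction, against 2.84, 3.72 and 4.86 CPM in mature adipocytes, without overlap. It fell by 0.81 ± 0.17 on the log2 scale in the stromal vascular fraction (adjusted p = 0.000895), and stood in mature adipocytes at 215.7% of the stromal vascular level. Ccne2, cyclin E2, had 1.82, 2.61 and 2.96 CPM, against 1.55, 3.22 and 3.60 CPM in mature adipocytes, and the difference of -0.20 ± 0.16 was not called (adjusted p = 0.238). E2f1 had 10.7, 12.8 and 14.4 CPM, against 6.94, 10.4 and 13.8 CPM in mature adipocytes, and its difference of 0.32 ± 0.15 was not called (adjusted p = 0.0626) and turned to -0.16 with edgeR. Both calls depended on the scaling. Ccne2 was called lower with median-of-ratios scaling (-0.48, adjusted p = 0.0114), quantile normalization (-1.37, adjusted p = 7.45e-07), edgeR (-0.77, adjusted p = 0.00601) and DESeq2 (-0.70, adjusted p = 0.00356), and E2f1 was called lower after quantile normalization (-0.39, adjusted p = 0.0129). They also depended on single libraries: Ccne2 was called lower without the third Kdm5c+/+ mature adipocyte library (-0.34, adjusted p = 0.0184), and E2f1 was called higher without the second Kdm5c+/+ one (0.42, adjusted p = 0.0126) or the third Kdm5c+/- one (0.40, adjusted p = 0.0258). With same-numbered libraries of the fractions taken as a replicate block E2f1 was also called higher (0.32, adjusted p = 0.0491). Of the Ccne2 exon bases, 17.4% overlap Ints8 on the opposite strand.

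Replication genes were retained more than mitotic genes. The median level in mature adipocytes was 25.8% of the stromal vascular level for the 10 replication genes, 6.93% for the 18 mitotic genes and 122.9% for the 3 G1/S regulators, and 71.6% over all genes tested. The pooled markers of stromal vascular cell types had a median of 1.74%, and among their lists the Schwann cell markers, at 6.64%, lay near the mitotic median. The part of carried-over stromal vascular cells in these levels was not tested. The median log2 differences were 1.83, 2.31 and -0.20 for the 3 classes, against 0.45 over all genes. Taken by same-numbered pairs of stromal vascular and mature adipocyte libraries, the mitotic median exceeded the replication median in all 6 pairs, by 0.06 to 0.66. The gap between medians, 0.48, depended on the scale: it was 1.89 with edgeR, 0.08 after quantile normalization and 0.12 when Ccna2, Top2a, Mki67 and Foxm1 were left out. Members are not replicates, so no test was made of the gap.

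**Figure D2:**
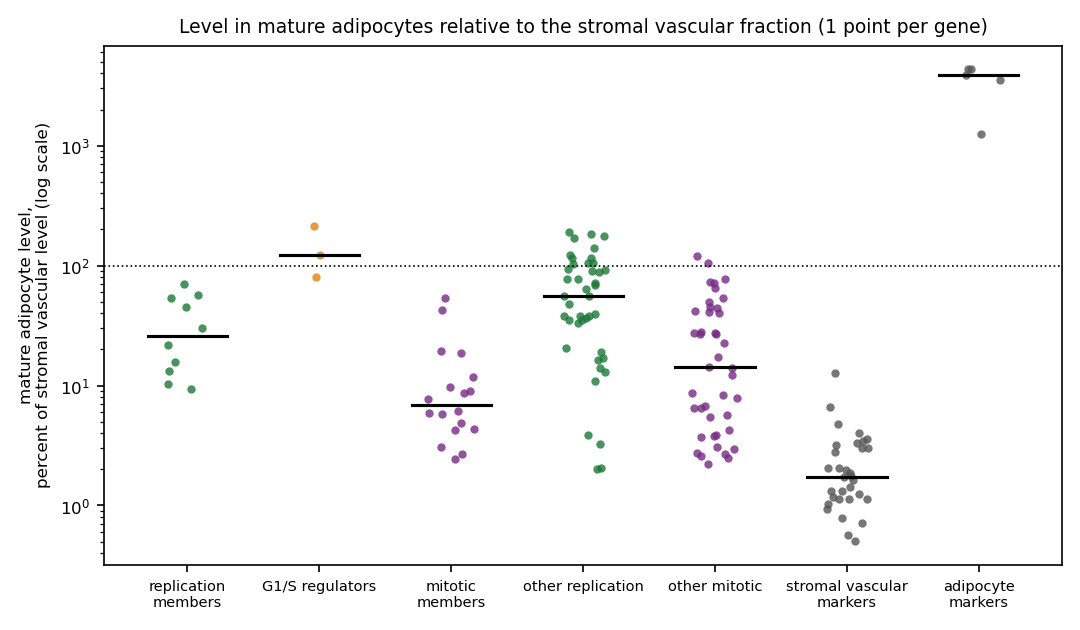
Mean level in mature adipocytes as a percent of the stromal vascular mean, on a log axis, with 1 point per gene and a line at each list's median. Mitotic genes (median 6.93%) lie below replication genes (25.8%), and the G1/S regulators (122.9%) lie near or above the dotted line at equal levels.

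Summed over each class, the replication genes came to 241 ± 22.3 CPM in the stromal vascular fraction and 74.2 ± 7.80 CPM in mature adipocytes (SD, n = 6 each), a ratio of 3.25. The mitotic genes came to 190 ± 41.9 CPM in the stromal vascular fraction and 14.6 ± 2.56 CPM in mature adipocytes, a ratio of 13.0. For each CPM of replication RNA there were 0.781 ± 0.110 CPM of mitotic RNA in the stromal vascular fraction and 0.196 ± 0.0186 in mature adipocytes. The G1/S sum was nearly equal in both, at a ratio of 0.995.

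The rest of the pathway was followed in lists that hold none of the 31 genes, to be read against the 59.1% of all genes called higher and 28.7% called lower. Of 41 other replication genes tested, 27 rose in the stromal vascular fraction and 8 fell, shares near those of all genes, and 22 lay above the median of all genes. Their median log2 difference was 0.62, against 0.45 over all genes, and after quantile normalization 15 were called higher and 22 lower. Pola2, a subunit of the primase polymerase, rose by 2.69 and Pole2, of the leading strand polymerase, by 2.59, as did Dbf4, the activator of the Cdc7 kinase, by 2.37. The helicase partners Cdc45, Gins4 and Gins2 went the other way. Cdc45 had 4.03 ± 0.835 CPM in the stromal vascular fraction and 7.36 ± 1.01 CPM in mature adipocytes (SD, n = 6 each), and Gins4 17.3 ± 0.872 CPM and 29.2 ± 1.80 CPM. All 3 fell, by 0.74, 0.72 and 0.72 on the log2 scale. Of 41 other mitotic genes tested, 38 rose and 1, Cks1b, fell (-0.26, adjusted p = 0.0104), against the same 59.1% and 28.7%, with a median of 1.72. The cytokinesis genes Kif23 and Prc1 rose by 3.42 and 3.07, and the condensin subunit Ncaph by 3.04.

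Cyclins, kinases and inhibitors of G1 were called in both directions, in shares near the 59.1% higher and 28.7% lower of all genes. Of 12 G1 drivers, 6 rose and 4 fell. Ccnd1, cyclin D1, had 140 ± 24.9 CPM in the stromal vascular fraction and 4.0 ± 1.79 CPM in mature adipocytes (log2 difference 4.88 ± 0.13), and Cdk6 and Skp2 rose by 2.24 and 1.55. Ccnd2, cyclin D2, had 134 ± 9.64 CPM in the stromal vascular fraction and 298 ± 30.0 CPM in mature adipocytes (-1.15 ± 0.07), and Myc and E2f3 fell by 0.91 and 0.46. Of 14 brakes tested, 9 rose and 3 fell. Cdkn2c, an inhibitor of Cdk4 and Cdk6, was the strongest of these, with 16.8 ± 3.03 CPM in the stromal vascular fraction and 279 ± 54.2 CPM in mature adipocytes (-3.97 ± 0.14). Cdkn2b and Rb1 fell by 1.38 and 0.95, and Trp53, Cdkn1b and Wee1 rose by 1.74, 1.48 and 1.40.

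**Figure D3:**
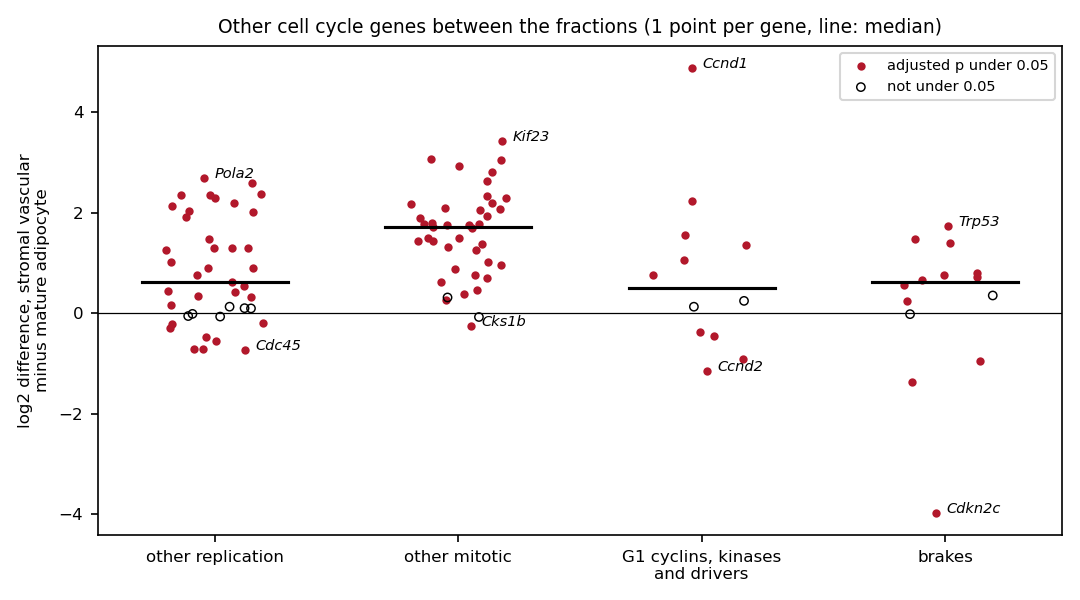
Log2 difference between fractions (stromal vascular minus mature adipocyte) of the other pathway genes, 1 point per gene, filled where the adjusted p was under 0.05, with a line at each list's median. Most other mitotic genes lie above 0, while the other replication genes, G1 drivers and brakes spread to both sides, with Cdkn2c at -3.97.

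By genotype label within the stromal vascular fraction, none of the 31 genes was called. The same test called 1 of 13792 genes, 0.00725% upward and 0% downward. With an unadjusted p under 0.05, 1 of the 31 was lower (Rrm2) and 0 higher, against 5.50% and 2.07% of all genes. DESeq2 and edgeR called 0 of the 31, against 0.384% and 0.00725% of all genes. The differences were below 0 for 29 of the 31, including all 18 mitotic genes, against 59.4% of all genes, and their median was -0.17. Rrm2 had 8.80, 5.77 and 8.42 CPM in Kdm5c+/- libraries, against 10.4, 12.6 and 8.98 CPM in Kdm5c+/+ libraries (log2 difference -0.44 ± 0.18, adjusted p = 0.644). Foxm1 had 10.9, 7.83 and 10.8 CPM in Kdm5c+/- libraries, against 12.6, 15.7 and 11.0 CPM in Kdm5c+/+ libraries (-0.38 ± 0.17, adjusted p = 0.648). These 2 and Cdk1 were the 3 of 31 genes whose Kdm5c+/- libraries all lay below the Kdm5c+/+ ones, against 9.74% of all genes, and 0 lay wholly above, against 3.74%. Mcm6 had 45.8, 37.4 and 41.5 CPM in Kdm5c+/- libraries, against 49.4, 49.4 and 44.3 CPM in Kdm5c+/+ libraries, and overlapped (-0.20 ± 0.10, adjusted p = 0.661).

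The size of the difference in the sums varied with the libraries kept. The second Kdm5c+/- library was the lowest of the 6 for 25 of the 31 genes, and the second Kdm5c+/+ library the highest for 22. The mitotic sums were 185, 138 and 183 CPM in Kdm5c+/- libraries, against 206, 261 and 164 CPM in Kdm5c+/+ libraries, a ratio of 0.801. With single libraries left out the ratio was 0.722 to 0.911, and without both libraries numbered 2 it was 0.994. That pair was chosen after these values were seen, and leaving out its low and its high library had to raise the ratio. The replication sums were 256, 207 and 233 CPM in Kdm5c+/- libraries, against 256, 266 and 227 CPM in Kdm5c+/+ libraries, a ratio of 0.929. With single libraries left out this ratio was 0.882 to 0.978, and without that pair 1.01. The summed B and T cell markers were 108, 33.2 and 88.1 CPM in Kdm5c+/- libraries and 114, 96.4 and 28.4 CPM in Kdm5c+/+ libraries, and the mammary epithelium markers 103, 210 and 48.0 CPM and 76.8, 84.8 and 168 CPM. The 2 libraries lowest in B and T cell markers were also the 2 lowest in mitotic RNA and the 2 highest in mammary markers. Without them the ratio of the mitotic sums was 0.788 and that of the replication sums 0.935. Some other markers also moved with the extremes, and others did not. The second Kdm5c+/- library had the highest adipocyte sum of the 6 (1451 CPM) and the lowest endothelial (4684 CPM) and pericyte and smooth muscle sums (2374 CPM). The second Kdm5c+/+ library had the lowest adipocyte sum (399 CPM) and the highest endothelial (6606 CPM) and pericyte and smooth muscle sums (3687 CPM). By label, Kdm5c+/- over Kdm5c+/+, the adipocyte sum stood at 1.87, the endothelial sum at 0.846 and the pericyte and smooth muscle sum at 0.788. The macrophage and Schwann cell sums were highest in the second Kdm5c+/- library (1481 and 445 CPM) and stood at 1.20 and 1.35 by label. In the second Kdm5c+/+ library they were 1109 and 249 CPM, not the lowest. The progenitor sum was not extreme in either library (5010 and 5822 CPM) and stood at 0.845 by label. The part of these cell types in the result was not tested.

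**Figure D4:**
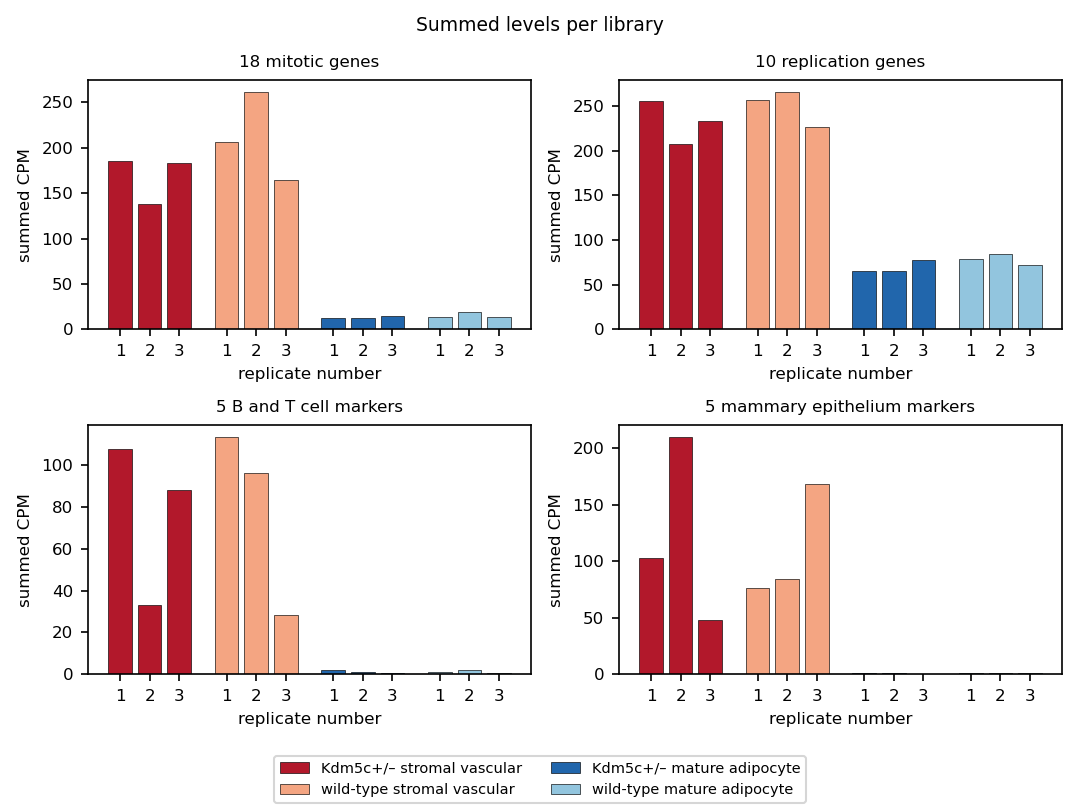
Summed CPM per library of the 18 mitotic genes, the 10 replication genes, and 5 B and T cell and 5 mammary epithelium markers, by replicate number in the 4 groups, each bar being 1 library. The second Kdm5c+/- stromal vascular library is low in mitotic RNA (138 CPM) and in B and T cell markers (33.2 CPM) and high in mammary markers (210 CPM).

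In mature adipocytes 17 of the 31 genes reached the level for testing, only 4 of them mitotic, and none was called. Nor was any of the 11913 genes tested called (0%), while 9.01% were lower and 5.57% higher at an unadjusted p under 0.05. At that unadjusted threshold 3 of the 17 were lower and 0 higher, and 11 of the 17 were below 0, against 56.9%. Cdc6 had 1.83, 0.961 and 1.88 CPM in Kdm5c+/- libraries, against 3.76, 3.77 and 2.7 CPM in Kdm5c+/+ libraries (log2 difference -0.80 ± 0.21, adjusted p = 0.275). Mki67 had 0.991, 1.12 and 0.627 CPM in Kdm5c+/- libraries, against 2.27, 1.90 and 1.55 CPM in Kdm5c+/+ libraries (-0.61 ± 0.18, adjusted p = 0.288). Rrm2 had 0.917, 0.720 and 1.10 CPM in Kdm5c+/- libraries, against 1.32, 1.60 and 1.55 CPM in Kdm5c+/+ libraries (-0.38 ± 0.15, adjusted p = 0.329). With Foxm1 these made 4 of the 17 genes whose Kdm5c+/- libraries all lay lower and 0 lay higher, against 12.6% and 9.44% of the genes tested. Among the 14 genes below the level for testing, Cdc20 lay lower and Ccnb2 higher in the same way. Mki67 and Rrm2 reached that level through their Kdm5c+/+ libraries, most of their Kdm5c+/- libraries lying under 1 CPM. Their place among the 4, and among the 3 lower at an unadjusted p under 0.05, is therefore partly set by the filter. DESeq2 and edgeR called 0 of the 17, against 2.10% and 0% of the genes tested.

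Beside these values, the endothelial markers summed to 150, 91.7 and 164 CPM in Kdm5c+/- mature adipocytes and 260, 233 and 207 CPM in Kdm5c+/+ mature adipocytes. The pericyte and smooth muscle markers summed to 45.8, 26.8 and 61.3 CPM in Kdm5c+/- mature adipocytes and 75.0, 108 and 81.4 CPM in Kdm5c+/+ ones, and neither list overlapped between labels. The progenitor sums did not overlap either, at 50.0, 51.1 and 53.7 CPM in Kdm5c+/- libraries and 64.1, 121 and 59.8 CPM in Kdm5c+/+ ones. Nor did the adipocyte sums, which were higher in Kdm5c+/- libraries. Kdm5c+/- over Kdm5c+/+, the progenitor sum stood at 0.633 and the adipocyte sum at 1.31. The second Kdm5c+/+ library stood out in macrophage markers (56.6 CPM, against 18.7 to 23.1 CPM in the other libraries) and was the highest of the 6 for 18 of the 31 genes. The part of these cells in the lower Cdc6, Mki67 and Rrm2 values was not tested. The mitotic sum was 0.854 times and the replication sum 0.886 times the Kdm5c+/+ level.

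**Figure D5:**
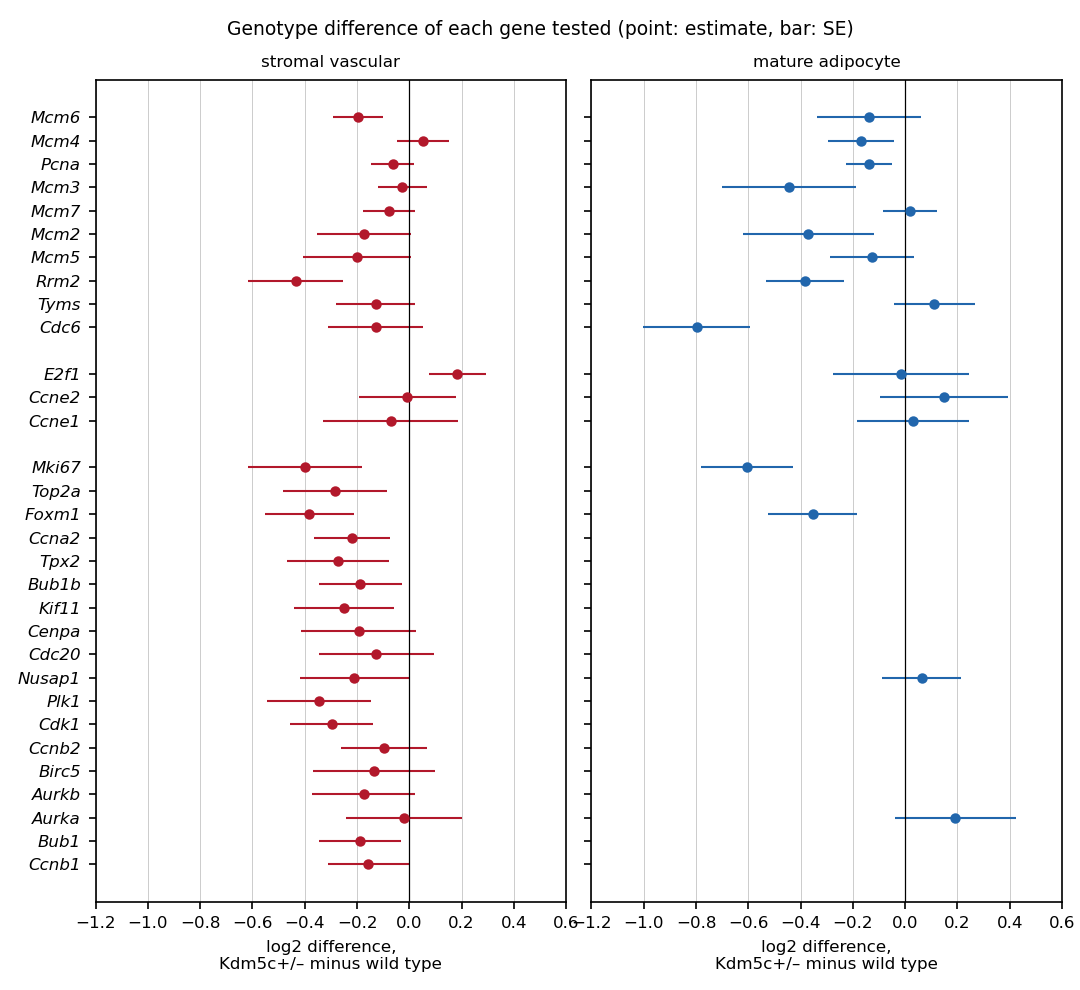
Log2 difference by genotype label (Kdm5c+/- minus Kdm5c+/+) for each gene tested, in the stromal vascular fraction (left) and in mature adipocytes (right), as the estimate with a bar of 1 SE on each side. In the stromal vascular fraction 29 of 31 estimates lie below 0 and none was called, and in mature adipocytes 11 of 17 lie below 0.

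The genotype difference itself was compared between fractions, and none of the 31 genes, nor any of the 14193 tested (0%), was called. At an unadjusted p under 0.05, 1 of the 31 was higher (Cdc6) and 0 lower, against 4.69% and 4.24% of all genes, and 21 of the 31 were below 0, against 47.3%. For Cdc6 the difference was 0.67 ± 0.28 less negative in the stromal vascular fraction (adjusted p = 0.534). Plk1, the polo kinase, had 6.35, 3.98 and 4.44 CPM in Kdm5c+/- stromal vascular libraries, against 5.81, 8.13 and 5.56 CPM in Kdm5c+/+ ones. Its mature adipocyte values were 0.330, 0.961 and 0.431 CPM in Kdm5c+/- libraries, against 0.620, 0.408 and 0.348 CPM in Kdm5c+/+ libraries, and the difference between fractions was -0.44 ± 0.28 (adjusted p = 0.681). Mcm3, a ring subunit, had 32.5, 28.1 and 31.6 CPM in Kdm5c+/- stromal vascular libraries, against 32.8, 32.8 and 28.3 CPM in Kdm5c+/+ ones. In mature adipocytes it had 3.89, 2.44 and 5.92 CPM in Kdm5c+/- libraries, against 5.83, 6.32 and 4.87 CPM in Kdm5c+/+ libraries, with a difference of 0.42 ± 0.29 (adjusted p = 0.697).

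None of the other pathway genes was called by genotype label in either fraction. In the stromal vascular fraction 30 of 41 other replication genes and 38 of 41 other mitotic genes were below 0, against 59.4% of all genes. The same counts in mature adipocytes were 30 of 37 and 11 of 16, against 56.9% of the genes tested. Genes of a list are not replicates, and these counts come from the same libraries as those of the 31 genes. How far single libraries set these counts was not tested. Ccnd1 had the smallest p of the G1 drivers, with 108, 125 and 128 CPM in Kdm5c+/- stromal vascular libraries, against 178, 144 and 157 CPM in Kdm5c+/+ ones (-0.40 ± 0.11, adjusted p = 0.617). In mature adipocytes it had 2.94, 1.60 and 3.37 CPM in Kdm5c+/- libraries, against 6.70, 4.21 and 5.21 CPM in Kdm5c+/+ libraries (-0.83 ± 0.24, adjusted p = 0.289). Its Kdm5c+/- libraries all lay below the Kdm5c+/+ ones in both fractions. The same held for 9.74% of the genes tested in the stromal vascular fraction and 12.6% in mature adipocytes. Ccnd1 was picked by its p in each fraction, which favours such a separation. The mitotic kinase Ttk and the securin Pttg1 had stromal vascular differences of -0.44 ± 0.15 and -0.21 ± 0.08, and the chromatin assembly factor Chaf1a -0.35 ± 0.14 (adjusted p = 0.617, 0.635 and 0.644). In mature adipocytes Cdc25a, a phosphatase that activates Cdk2, had a difference of 0.59 ± 0.20 and Pola1 of -0.40 ± 0.13 (adjusted p = 0.298 and 0.296).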

How the data were processed

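RNA of 12 libraries was analysed. Per the labels' protocols, the fat of 2 mice was pooled and digested, and strand-specific libraries were made. STAR 2.7.2a, edgeR 3.26.8 and the build GRCm38 were used per the submitters' processing notes, while for counting neither tool nor annotation is named in these sources. What the authors deposited is CPM, summing to 1000000 per library. All values were whole multiples of 1 read (tolerance 0.05 read), so reads were recovered.

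A gene entered a fit when 3 or more of its libraries reached 1 CPM. Tests were two-sided, on log2(CPM + 1), with limma 3.58.1 (eBayes with trend and robust) under R 4.3.3. The fractions were compared in all 12 libraries and the labels within each fraction in 6. edgeR 4.0.16 and DESeq2 1.42.0 on recovered reads, other scalings, filters, pseudocounts and left-out libraries were the alternatives. The step was tested on simulated data. Same-numbered libraries of the fractions were taken as pools, since their deviations correlated at 0.169 to 0.278 in all 6 pairs. The labels do not say whether pools are independent litters, so p-values measure the spread between these libraries. The main fits over all 12 libraries took them as independent. The pools entered only as a replicate block in an alternative. Lengths and positions came from GENCODE M21.

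The members and lists were chosen with earlier results of these data known. Lowest, median and highest values are given for the G1/S regulators, and for the 4 replication and 6 mitotic genes highest in mean CPM. Values in every library compared are given for the 3 genes with the smallest p by label within each fraction. For the difference between fractions they are given for Plk1 and Mcm3, and for Cdc6 in mature adipocytes only. Of the other lists, for each direction at most 3 genes with the largest called difference between fractions and some of those with the smallest p by label are named. Nusap1, Aurka, Bub1, Cdk1, Cdc20 and Ccnb2 were singled out after their values were seen.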

Additional observations from a re-analysis of the deposited data

How the results depend on the processing

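Of the counts, medians, sums and levels recomputed under an alternative, 745 stayed within their spread or within 1.5 times, and 51 moved. The 745 include the counts called by genotype label, which were 0 in the main fit and under every alternative. The 745 against 51 therefore overstates how stable the comparison of the fractions was. Other scalings lowered the median of all genes between fractions by 0.36 (median-of-ratios, DESeq2), 0.44 (edgeR) or 0.53 (quantile normalization). Genes called higher in the stromal vascular fraction numbered 16 with a mean of at least 5 CPM, where fewer genes are tested, instead of 28. Those called lower numbered 0 at that mean, 2 with median-of-ratios, edgeR or DESeq2, and 6 after quantile normalization, instead of 1. Leaving out single libraries gave 28 to 29 higher and 1 to 2 lower.

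Direction turned for Cdc6 (-0.26), Tyms (-0.34), Aurka (-0.44) and Nusap1 (-0.44) after quantile normalization, and for E2f1 with median-of-ratios (-0.040), quantile (-0.39), edgeR (-0.16) and DESeq2 (-0.080). Relative to the median of all genes, quantile normalization left 8 of 10 replication and 16 of 18 mitotic genes above it, and the other scalings all of them. Class medians moved to 1.47 (median-of-ratios), 1.09 (quantile) and 1.50 (edgeR) for replication, and 0.96 with the G1/S genes counted in. Mitotic medians moved to 3.20 (pseudocount 0.25), 2.06, 1.17 and 3.39 (the same 3 scalings), and 1.96 without Ccna2, Top2a, Mki67 and Foxm1. G1/S medians moved to -0.48, -1.37 and -0.78. The mitotic minus replication gap was 1.25 (pseudocount 0.25), 0.078 (quantile), 1.89 (edgeR), 0.12 without those 4 genes and 1.35 with the G1/S genes in replication.

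With median-of-ratios and quantile scaling, the fraction ratio of the sums was 2.48 and 2.07 for replication and 9.92 and 4.61 for mitotic genes, and the median percent 33.8 and 41.3, and 9.08 and 26.6. The mitotic to replication ratio in mature adipocytes was 0.315 after quantile normalization. The replication median per kilobase was 5.38 over the union of exons. In the other lists, replication genes called higher numbered 17 (mean of 5 CPM) and 15 (quantile) of 27, and called lower 14, 22, 15 and 14 (median-of-ratios, quantile, edgeR, DESeq2) instead of 8. Other mitotic genes called higher numbered 11 (mean of 5 CPM) and 25 (quantile) instead of 38, and called lower 2, 8, 2 and 2 in the same order of scalings, 0 in Kdm5c+/+ and 2 in Kdm5c+/- libraries. Brakes called higher numbered 5 (quantile), and called lower 5 (quantile, edgeR). The cause of these shifts was not tested.

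Same-numbered libraries of the fractions as a replicate block gave 29 members called higher through E2f1 (0.32, adjusted p = 0.0491). The G1 drivers called higher then numbered 7 instead of 6. Numbers shared between genotype labels were not taken as pairs in the main fits. Correlations for numbers 1, 2 and 3 were 0.184, -0.281 and -0.204 in the stromal vascular fraction and 0.341, -0.026 and -0.001 in mature adipocytes. Only the libraries numbered 1 correlated positively, in both fractions, and what they share was not tested. 2 settings were added after seeing the data. One left out both stromal vascular libraries numbered 2, chosen because they held the lowest and highest member values, and the other left out the 2 lowest in B and T cell markers. No member was called by genotype label under either, and the Rrm2 difference was -0.15 and -0.37.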
